A study of Oncorhynchus mykiss with 6 samples.

Results

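Chaperones of the endoplasmic reticulum (ER) lumen were examined in liver RNA-seq libraries of rainbow trout (Oncorhynchus mykiss). The heat group was kept at 24 °C for 8 h and the control group at 18 °C, with 3 libraries each. The treatment labels speak of the liver being kept at each temperature, while the design text speaks of the liver of trout, and strain, age and the number of fish are not given. The question in the design text was how liver mRNA differs under heat stress. The members were all gene entries of the deposited table whose symbol, case ignored, was hspa5, grp94, hsp90b1, hyou1, dnajc3a or calr, or calr with a number or letter after it. The rule found 13 entries among the 5045 listed. They comprise 2 entries named hspa5, 1 each named grp94, Hsp90b1 and dnajc3a, 2 named hyou1, and 6 calreticulin entries under the symbols CALR (2 entries), calr, Calr, calr3a and calr3b. Where a symbol has 2 entries, copy 1 is the one with the higher mean level over the 6 libraries.

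The ER lumen is where secreted and membrane proteins fold, and liver secretes most plasma proteins. BiP (hspa5) is the Hsp70 of the ER: it binds unfolded chains under ATP control, is loaded by J-domain co-chaperones such as the product of dnajc3a (P58IPK in mammals), and releases its client when a nucleotide exchange factor such as that of hyou1 (GRP170) acts on it. GRP94 (grp94, Hsp90b1) is the Hsp90 of the ER, and calreticulin is a calcium-binding lectin that holds newly made glycoproteins until they have folded. In mammals, transcription of these genes is raised by the unfolded protein response when unfolded proteins build up in the lumen. Salmonid genomes carry a further whole-genome duplication, and many genes are present as duplicate copies.

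The authors had kept only genes that differed in the same contrast: in the authors' deposited table no adjusted p exceeds 0.049875, and the smallest log2 fold change, sign aside, is 1.00019. That a member is listed therefore already fixes that it differed, and nothing is said here of genes outside the list. Counts over the listed genes summed to 2663575 to 3586127 per heat library and 1409460 to 1421082 per control library. The 13 members took 9.19 to 9.35% of these counts in the heat libraries and 1.84 to 1.93% in the control libraries. In bulk tissue, fewer cells of a type and less RNA per cell cannot be told apart. Whether each library stands for a different fish is not in the labels, so a p-value measures the spread among these 6 libraries, and that spread may be technical. How reads shared by near-identical copies were counted is not given in the sources used here, and the split of reads between copies of one gene is uncertain.

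All 13 members rose in heat (limma-voom, Benjamini-Hochberg adjusted p under 0.05), from 2.004-fold for calr3b to 36.3-fold for hspa5 copy 2. Of the 4766 testable genes of the list, 58.1% rose and 100% passed in either direction, so these calls restate the selection of the list. The median log2 fold change was 2.76 over the members and 1.13 over all tested genes. Median-of-ratios scaling, which takes most listed genes as unchanged, lowered that overall median by 0.89 and the members' changes with it, and left 1733 genes higher and 1996 lower in heat, beside 2770 higher and 1996 lower in the reported fit. The members still passed, with a rise of 1.08-fold for calr3b and 11.8-fold for hspa5 copy 1. The summed level of the members was 5441, 5528 and 5600.5 FPKM (fragments per kilobase, scaled to library size) in heat replicates 1 to 3, against 689, 699.7 and 656 FPKM in control replicates 1 to 3. The sum averaged 5523 ± 79.8 FPKM in heat and 682 ± 22.9 FPKM in control (SD, n = 3 each), an 8.10-fold difference. With 3 libraries a group, the exact permutation test (two-sided) gave p = 0.1 for this sum, the smallest value it allows.

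Among the members, the BiP entry hspa5 copy 2 had the largest change, and 4 members changed more than the BiP entry hspa5 copy 1. Of all tested genes, 144 had a larger log2 fold change than hspa5 copy 1. The level of hspa5 copy 1 was 1668, 1675 and 1729.8 FPKM in heat replicates 1 to 3, against 81.0, 76.0 and 74.9 FPKM in control replicates 1 to 3. Among the 5045 listed genes it ranked 7 by mean level in heat and 91 in control. Its fold change of 21.9 (log2 4.45 ± 0.04, SE) rested on 246646 reads in heat and 8835 in control. The second entry, hspa5 copy 2, was at 152, 155 and 160.3 FPKM in heat, against 4.41, 4.36 and 4.05 FPKM in control. Both entries carry the KEGG orthology number of BiP in the authors' annotation. From the ratio of count to FPKM, the transcript length of copy 2 was 99.5% of that of copy 1. Neither entry's groups overlap, which does not set them apart, since the list had been selected on this contrast. The share of all listed genes without overlap was not counted. In every library copy 2 was a small share of the listed BiP transcripts. It rose 36.3-fold (log2 5.18 ± 0.10, SE).

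**Figure D1:**
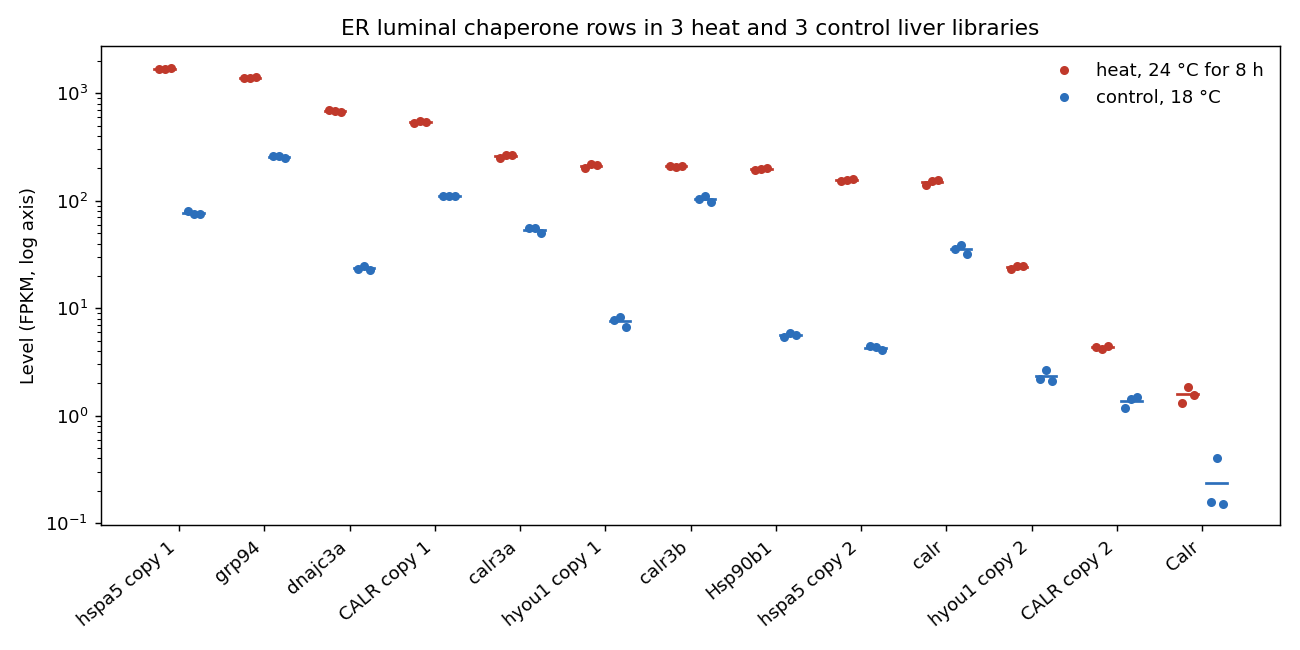
Level of each of the 13 members in FPKM (log axis) in the 3 heat libraries (red, left) and the 3 control libraries (blue, right). Points are libraries and short lines are means. The heat libraries lie above the control libraries for each member, in a list selected on this contrast. The gap is widest for hspa5 copy 2 (36.3-fold) and narrowest for calr3b (2.004-fold).

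The members whose products act on the BiP cycle, dnajc3a and hyou1, rose between 10.4-fold and 29.2-fold. The J-domain co-chaperone gene dnajc3a was at 696, 688 and 672 FPKM in heat replicates 1 to 3, against 23.4, 24.7 and 22.5 FPKM in control replicates 1 to 3, a 29.2-fold rise (log2 4.87 ± 0.06, SE). The exchange factor gene hyou1, copy 1, was at 202, 219 and 214 FPKM in heat, against 7.73, 8.36 and 6.62 FPKM in control, a 28.2-fold rise (log2 4.82 ± 0.07, SE). In both genes the lowest heat library stood above the highest control library. This does not set them apart, since the list had been selected on this contrast. The lower entry, hyou1 copy 2, was at 23.1, 24.9 and 24.6 FPKM in heat, against 2.201, 2.65 and 2.12 FPKM in control. It rose 10.4-fold (log2 3.38 ± 0.11, SE), less than copy 1.

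The GRP94 entries started from very different levels. The entry grp94 was at 1378, 1385 and 1418 FPKM in heat replicates 1 to 3, against 258, 259.9 and 248 FPKM in control replicates 1 to 3. It was the most abundant member in control and came second to hspa5 copy 1 in heat, and it rose 5.45-fold (log2 2.45 ± 0.03, SE). Hsp90b1 was at 192, 199 and 200.3 FPKM in heat, against 5.35, 5.82 and 5.58 FPKM in control, a 35.2-fold rise (log2 5.14 ± 0.09, SE). Both entries have the KEGG orthology number of GRP94, and their estimated transcript lengths were 115% (grp94) and 109% (Hsp90b1) of that of hspa5 copy 1.

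The 4 abundant calreticulin entries rose by smaller factors than grp94. CALR copy 1 was at 524, 548 and 546 FPKM in heat replicates 1 to 3, against 109.8, 110.4 and 110.4 FPKM in control replicates 1 to 3, a 4.88-fold rise (log2 2.29 ± 0.04, SE). The entry calr3a was at 251, 266 and 267 FPKM in heat, against 55.7, 55.9 and 50.2 FPKM in control, a 4.86-fold rise (log2 2.28 ± 0.05, SE). The entry calr was at 141, 154 and 155 FPKM in heat, against 35.8, 38.7 and 32.0 FPKM in control, a 4.22-fold rise (log2 2.08 ± 0.06, SE). These 3 entries thus differed several-fold in level while their fold changes lay close together. The change of calr was smaller than that of CALR copy 1, with a log2 difference of -0.21 ± 0.06 (SE; limma-voom, adjusted p = 0.00116). The entry calr3b stood apart: it was at 208 FPKM in heat replicates 1 and 2 and 209 FPKM in heat replicate 3, against 104, 111 and 97.6 FPKM in control. Its log2 fold change of 1.003 ± 0.04 (SE) lay at the lower limit of the deposited list, where the authors' deposited table has 1.0004.

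The other calreticulin entries were low. CALR copy 2 was at 4.32, 4.18 and 4.44 FPKM in heat, against 1.17, 1.43 and 1.49 FPKM in control, a 3.16-fold rise (log2 1.66 ± 0.16, SE). Calr was at 1.32, 1.86 and 1.56 FPKM in heat, against 0.156, 0.405 and 0.152 FPKM in control. Its counts were 66, 70 and 57 in heat replicates 1 to 3, against 5, 13 and 5 in control replicates 1 to 3. Control replicate 2 was the highest of the control libraries, at low counts. The fold of Calr was 6.79 (95% interval 3.50 to 13.1). With each library left out it ranged from 5.78 (without control replicate 3) to 9.17 (without control replicate 2).

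**Figure D2:**
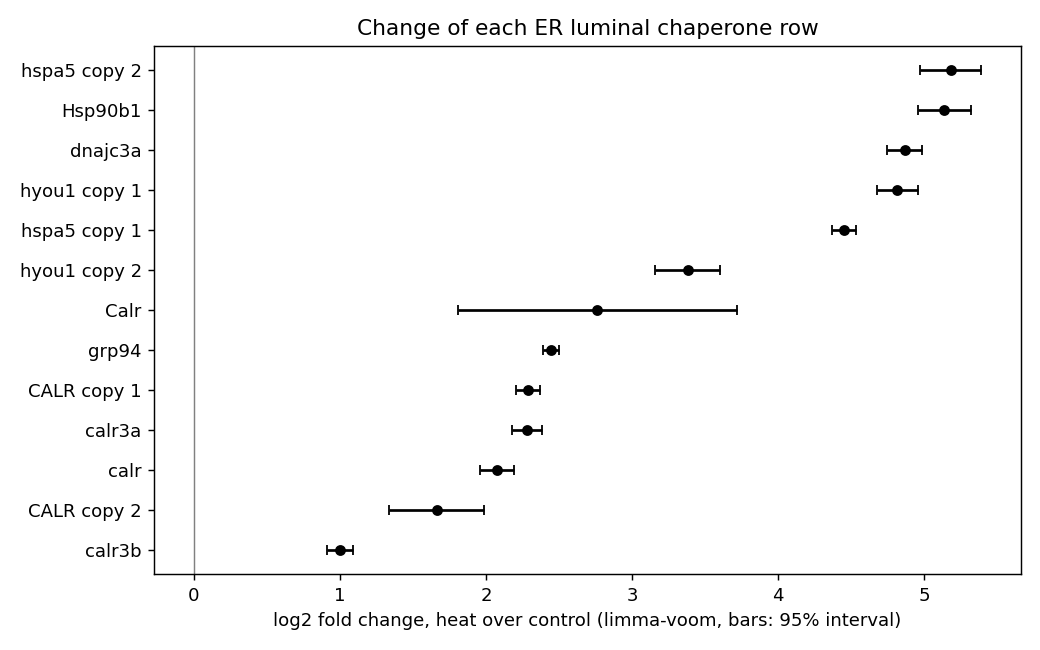
Log2 fold change of each member, heat over control, from limma-voom, with 95% intervals. The entries hspa5 copies 1 and 2, Hsp90b1, dnajc3a and hyou1 copy 1 lie between 4.45 and 5.18, hyou1 copy 2 at 3.38, and grp94 and the calreticulin entries between 1.003 and 2.76.

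The order of levels among the members differed between the groups. In heat it ran hspa5 copy 1, grp94, dnajc3a, CALR copy 1, calr3a, hyou1 copy 1, calr3b, Hsp90b1, hspa5 copy 2, calr, hyou1 copy 2, CALR copy 2 and Calr, by mean FPKM. Within this order, hyou1 copy 1 and calr3b overlapped between libraries, as did hspa5 copy 2 and calr, and the other neighbours did not. In control the order ran grp94, CALR copy 1, calr3b, hspa5 copy 1, calr3a, calr, dnajc3a, hyou1 copy 1, Hsp90b1, hspa5 copy 2, hyou1 copy 2, CALR copy 2 and Calr. Only CALR copy 1 and calr3b overlapped there. The gene dnajc3a stood at position 3 in heat and 7 in control, and calr3b at position 7 in heat and 3 in control.

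Shares within a library do not depend on how the libraries are scaled to each other. The hspa5 entries made up 33.4, 33.1 and 33.7% of the summed member FPKM in heat replicates 1 to 3, against 12.4, 11.5 and 12.05% in control replicates 1 to 3. The calreticulin entries together made up 21.1 ± 0.31% in heat and 44.8 ± 0.53% in control (SD, n = 3 each). Among these listed entries, calreticulin and GRP94 thus dominated at 18 °C, while hspa5 was the largest family at 24 °C. Any copy that the authors' selection left out is missing from these shares. The GRP94 entries made up 28.8 ± 0.13% in heat and 38.3 ± 0.36% in control. The share of dnajc3a was 12.4 ± 0.40% in heat and 3.45 ± 0.07% in control, and that of hyou1 was 4.27 ± 0.13% in heat and 1.45 ± 0.12% in control. The exact permutation test (two-sided) gave p = 0.1 for each of these 5 family shares, the smallest value that 3 libraries against 3 allow. The shares of one library add up to the whole, so the 5 are not separate observations.

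**Figure D3:**
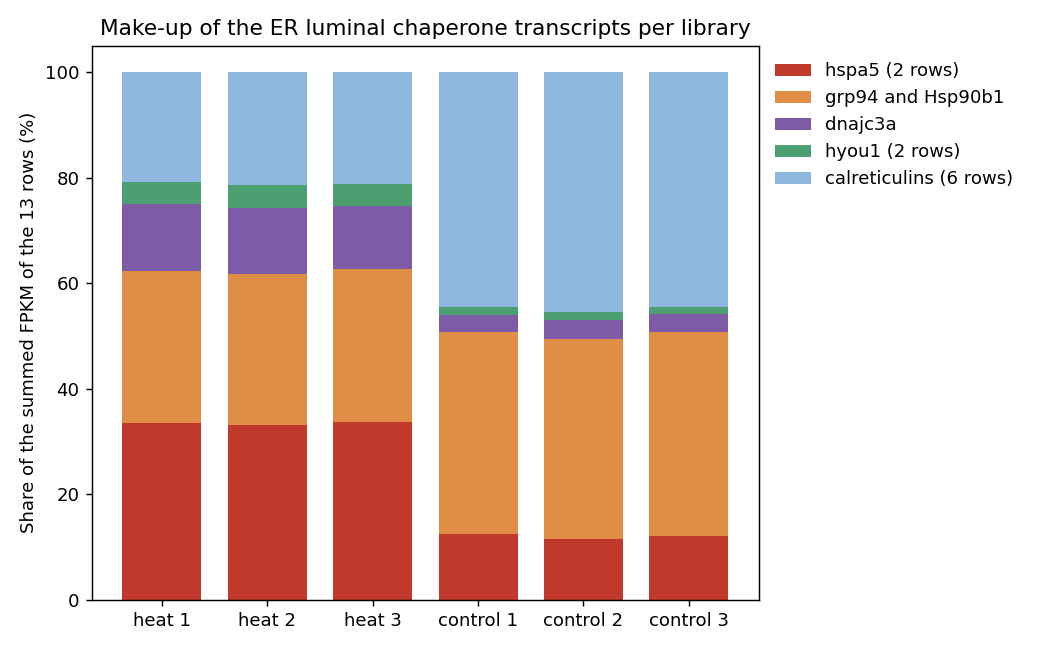
Share of each gene family in the summed FPKM of the 13 members, one bar per library, with the 3 heat libraries left of the 3 control libraries. The hspa5 share averages 33.4% in heat and 11.98% in control, and the calreticulin share 21.1% in heat and 44.8% in control.

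The ratio of listed BiP to GRP94 transcripts turned round. The level of hspa5 copy 1 was 121, 120.9 and 122% of that of grp94 in heat replicates 1 to 3, against 31.3, 29.3 and 30.2% in control replicates 1 to 3. Relative to hspa5 copy 1 in the same libraries, grp94 changed by a log2 difference of -2.003 ± 0.03 (SE; limma-voom, adjusted p = 4.34e-32). The level of CALR copy 1 was 31.9 ± 0.72% of that of hspa5 copy 1 in heat and 143 ± 6.29% in control (SD, n = 3 each), so the main calreticulin entry exceeded BiP in the control libraries and not in the heat libraries.

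When every gene was expressed relative to hspa5 copy 1 within its library, 8 of the other 12 members had changed less than it and 4 had changed more (limma-voom, adjusted p under 0.05 over all tested genes). Of all tested genes, 94.5% had changed less than hspa5 copy 1 and 1.32% more. The members that changed more were hspa5 copy 2, Hsp90b1, dnajc3a and hyou1 copy 1. Their log2 differences from hspa5 copy 1 were 0.73 (95% interval 0.52 to 0.94), 0.69 (0.50 to 0.88), 0.42 (0.28 to 0.55) and 0.37 (0.22 to 0.52). The level of dnajc3a was 40.5 ± 1.51% of that of hspa5 copy 1 in heat and 30.5 ± 1.86% in control, and that of hyou1 copy 1 was 12.5 ± 0.48% in heat and 9.79 ± 1.10% in control (SD, n = 3 each). While hyou1 copy 2 changed less than the main BiP entry (log2 difference -1.07 ± 0.11, SE), both partner entries dnajc3a and hyou1 copy 1 rose slightly more. Between these partners no difference was found: the change of dnajc3a relative to hyou1 copy 1 was 0.05 on the log2 scale (95% interval -0.15 to 0.25; limma-voom, adjusted p = 0.623, where 96.6% of all tested genes differed from hyou1 copy 1). At the other end, calr3b changed least, with a log2 difference from hspa5 copy 1 of -3.45 ± 0.05 (SE; limma-voom, adjusted p = 1.22e-33). The difference for Calr, -1.68 (95% interval -2.63 to -0.72; limma-voom, adjusted p = 0.00121), was -1.24 without control replicate 2 and then missed the threshold (adjusted p = 0.0515).

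Entries with the same KEGG orthology number did not all respond by the same factor. The comparisons relative to entries other than hspa5 copy 1 were chosen after seeing the data. Hsp90b1 was 14.0, 14.3 and 14.1% of grp94 in heat replicates 1 to 3, against 2.07, 2.24 and 2.25% in control replicates 1 to 3, a log2 difference in change of 2.69 (95% interval 2.51 to 2.87; limma-voom, adjusted p = 5.75e-22, where 84.6% of all tested genes differed from grp94). The level of hspa5 copy 2 was 9.09, 9.25 and 9.26% of that of copy 1 in heat, against 5.45, 5.74 and 5.40% in control. In these pairs the entry with the lower level in control rose by the larger factor. For hyou1 the lower entry rose less: copy 2 was 11.4, 11.4 and 11.5% of copy 1 in heat, against 28.5, 31.7 and 32.0% in control, a log2 difference of -1.43 (95% interval -1.70 to -1.16; limma-voom, adjusted p = 1.21e-13).

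The calreticulin entries, which share a KEGG orthology number but not all a symbol, included both a matched and an unmatched pair. The level of calr3a was 48.0, 48.6 and 49.0% of that of CALR copy 1 in heat replicates 1 to 3, against 50.7, 50.7 and 45.5% in control replicates 1 to 3, with overlapping groups. Their changes differed by -0.01 on the log2 scale (95% interval -0.11 to 0.09; limma-voom, adjusted p = 0.893), where 82.4% of all tested genes differed from CALR copy 1. The entry calr3b was 82.9, 78.2 and 78.1% of calr3a in heat, against 187, 198 and 194% in control, so the more abundant of the 2 was calr3a in heat and calr3b in control. Its change relative to calr3a was -1.28 on the log2 scale (95% interval -1.38 to -1.18; limma-voom, adjusted p = 1.31e-17), where 82.1% of all tested genes differed from calr3a. CALR copy 2 changed less than CALR copy 1 by 0.63 on the log2 scale, with an interval of the signed difference from -0.94 to -0.31 (limma-voom, adjusted p = 0.00057).

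**Figure D4:**
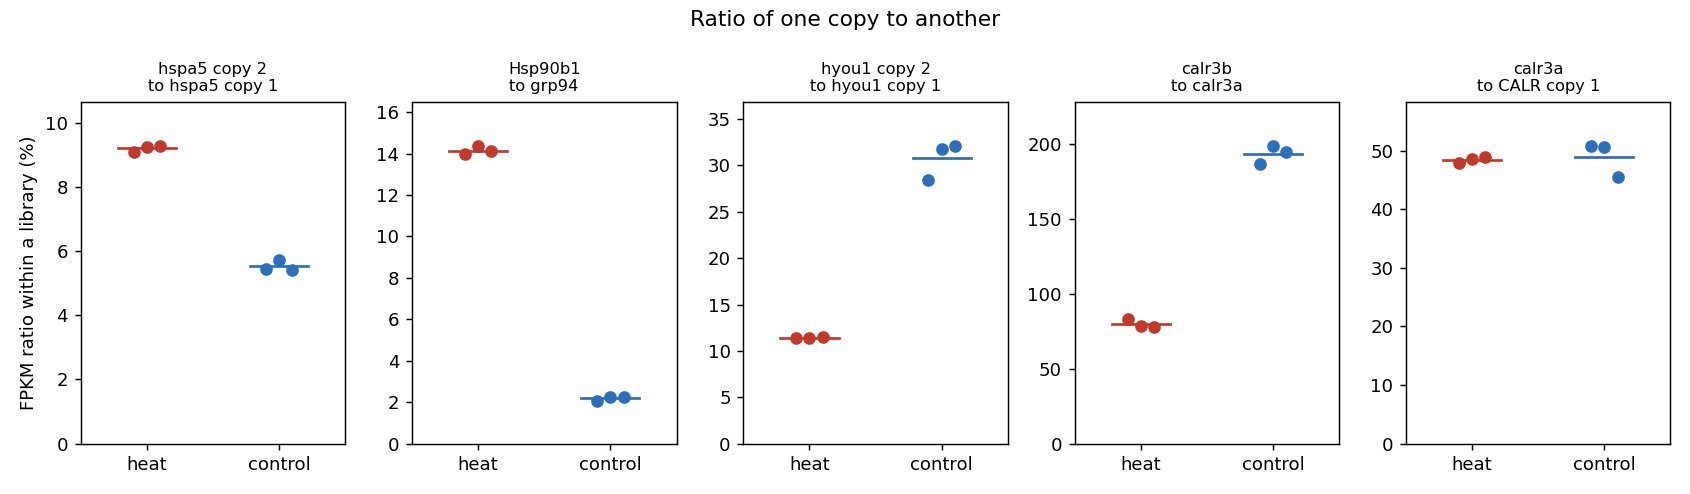
FPKM ratio of one entry to another within each library, in percent, with the heat libraries (red) left of the control libraries (blue). Points are libraries and lines are means. The ratio is higher in heat for hspa5 and GRP94, lower in heat for hyou1 and for calr3b to calr3a, and overlaps between the groups for calr3a to CALR copy 1.

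The authors' annotation gives the KEGG orthology number of dnajc3a also to dnajc3b and DNAJC3, which the rule did not take. The level of dnajc3b was 38.8 ± 1.35 FPKM in heat and 9.03 ± 0.24 FPKM in control (SD, n = 3 each), a 4.28-fold rise. DNAJC3 was at 7.47 ± 0.22 FPKM in heat and 0.793 ± 0.15 FPKM in control, a 9.47-fold rise. The entry dnajc3a was thus the most abundant of the 3 in heat and in control. No other listed entry carried the orthology number of a member.

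Other genes of ER folding and the unfolded protein response were read from a list of 88 symbols, of which 39 were listed, with 67 entries. Of these entries, 66 rose and 1 fell (limma-voom, adjusted p under 0.05), beside the 58.1% of all tested genes that rose. Their median log2 fold change was 1.84. Relative to hspa5 copy 1, 63 of the 67 changed less, a share near the 94.5% of all tested genes that did so. None changed more by limma-voom, which is near the 1.32% of all tested genes that did. The number that changed more was also 0 at an unadjusted p under 0.05, where the share of all tested genes was not counted. The 4 entries that differed from it in neither direction, named after their values were seen, were SIL1, ficd, ATF3 and an entry of DDIT3.

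Among the genes of the BiP cycle, 15 of 15 entries rose, with a median log2 fold change of 3.31. SIL1, the other nucleotide exchange factor of BiP, was at 181 ± 4.39 FPKM in heat and 7.62 ± 0.34 FPKM in control (SD, n = 3 each), a 23.6-fold rise. Its change relative to hspa5 copy 1 was 0.11 on the log2 scale (limma-voom, adjusted p = 0.265). The J-domain protein gene DNAJB9 had its 2 most abundant entries at 85.3 and 78.6 FPKM in heat, against 12.99 and 6.08 FPKM in control, which rose 6.54-fold and 12.96-fold. MANF, which encodes a secreted ER-stress factor that binds BiP, rose 8.40-fold in its more abundant entry.

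In the calreticulin and calnexin cycle, 7 of 7 entries rose, with a median log2 fold change of 1.71. The oxidoreductase gene pdia3, whose product works with calreticulin, was at 225 ± 7.76 FPKM in heat and 68.8 ± 0.54 FPKM in control, a 3.27-fold rise. Calnexin, the membrane-bound relative of calreticulin, rose 4.41-fold in the entry canx and 3.29-fold in the entry CANX. The glucosidase gene Mogs, which trims glycans before the lectins bind, rose 2.31-fold. The 7 fold changes lay between 2.31 and 5.43. Those of the calreticulin entries ran from 2.004 to 6.79, where the upper end is the low entry Calr. The next highest was CALR copy 1 at 4.88.

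In disulfide formation, 12 of 12 entries rose. PDIA6 was at 919 ± 17.5 FPKM in heat and 89.1 ± 3.88 FPKM in control, a 10.3-fold rise, and was the most abundant gene of the list in heat. The 2 entries of PDIA4 rose 5.88-fold and 3.43-fold, and P4hb rose 2.60-fold. In ER-associated degradation, 11 of 11 entries rose, among them SEL1L, 7.66-fold, ube2j1, 6.95-fold, derl2, 4.22-fold, and Herpud1, 7.12-fold. The receptor gene kdelr2, whose product returns luminal chaperones from the Golgi to the ER, rose 2.50-fold and 2.94-fold in its 2 entries.

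Among the sensors and transcription factors, 19 of 20 entries rose. XBP1, a transcription factor of the unfolded protein response, was at 415 ± 22.9 FPKM in heat and 119 ± 2.42 FPKM in control, a 3.48-fold rise. The more abundant entry of DDIT3, the factor also called CHOP, rose 2.52-fold, and the 2 most abundant entries of atf4 rose 2.16-fold and 5.13-fold. The 1 falling entry, a copy of the sensor gene ERN1 named only because its value was seen, was at 1.19 ± 0.16 FPKM in heat and 2.93 ± 0.19 FPKM in control, while the 2 entries named Ern1 rose. The lower of these, at a log2 fold change of 1.60, missed the threshold with median-of-ratios scaling (0.70; limma-voom, adjusted p = 0.0615). With median-of-ratios scaling, which assumes that most listed genes do not change, 59 of the 67 list entries rose. Of all 4766 tested genes, 1733 rose under that scaling.

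**Figure D5:**
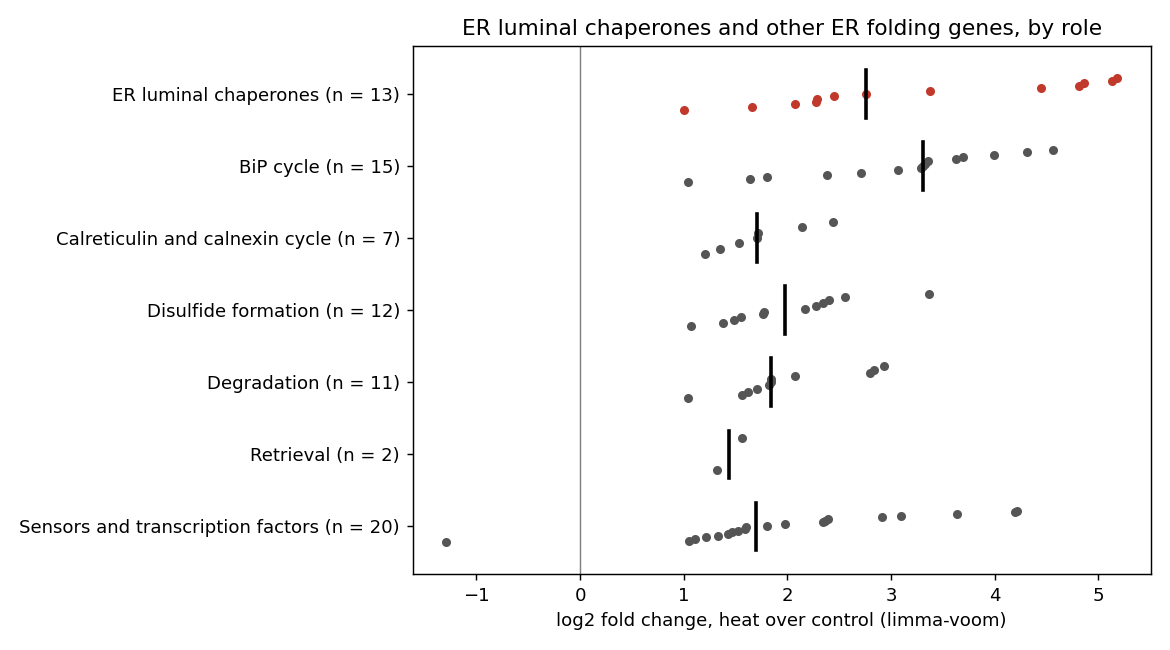
Log2 fold change (limma-voom, heat over control) of the 13 members (red) and of the 67 other listed ER folding entries (grey) by role; each point is an entry and each bar the median of its role. The median is 2.76 for the members, 3.31 for the BiP cycle and 1.71 for the calreticulin and calnexin cycle, and the single entry below 0 is a copy of ERN1.

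Chaperones of other compartments were set beside the ER entries. Of 22 such entries, 12 changed more than hspa5 copy 1, 8 changed less and 2 differed in neither direction (limma-voom, adjusted p under 0.05). Of all tested genes, 1.32% had changed more than hspa5 copy 1 and 94.5% less. The entries described are the most abundant of each symbol. Among cytosolic entries, hsp90a.1, an inducible Hsp90, was at 851 FPKM in heat and 10.4 FPKM in control, and its change exceeded that of hspa5 copy 1 by 1.91 on the log2 scale. The main entries of hspa1b, hsp70, hsc71 and Hspa4 also changed more. The sequences of the hsp70 entries were not compared. If they are near-identical copies, the values of single hsp70 entries are uncertain. Entries of one symbol did not all go the same way. A second entry of HSPA4, at 109 FPKM in heat and 7.15 FPKM in control, changed less than hspa5 copy 1, with a log2 difference of -0.52, a low entry of HSPA4 fell in heat, and a low entry of hsc71 changed less, with a difference of -1.95. The entry hspa8b, of the Hsp70 class, was at 193 FPKM in heat and 20.9 FPKM in control and changed less than hspa5 copy 1, with a log2 difference of -1.24. The mitochondrial chaperone genes HSPD1, hspe1 and Trap1 also changed less, with log2 differences of -0.99, -2.94 and -7.16, and Trap1 fell in heat. HSPA4L was low and its 2 entries both rose, by unlike amounts. The more abundant changed less than hspa5 copy 1, with a log2 difference of -1.77. The other changed more and had 252 reads in heat and 0 in control, so the size of its change is uncertain.

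The listed genes whose level over the 6 libraries ran most like that of hspa5 copy 1 were sought outside the members. The measure was the root mean square difference of centred log2(FPKM + 0.1) values. As libraries within a group lay close together, nearness mostly reflects a like heat-against-control fold change, and the list was selected on that contrast. It is therefore not a separate observation. The 5 nearest were NFE2L1 (0.07), COL8A2 (0.09), SIL1 (0.09), Adap2 (0.09) and plod3 (0.11). NFE2L1 encodes an ER-anchored transcription factor and plod3 a collagen-modifying ER enzyme. Of the 5 nearest, only SIL1 was in the list of ER folding and unfolded protein response genes. Whether the 5 share a role was not tested. The NFE2L1 entry was at 12.3 ± 0.62 FPKM in heat and 0.483 ± 0.05 FPKM in control, and plod3 at 41.1 ± 3.65 FPKM in heat and 1.90 ± 0.18 FPKM in control (SD, n = 3 each). The places of genes with low control levels depend on the added 0.1 FPKM. COL8A2 had 205 reads in heat and 0 in control. With 0.01 FPKM added instead, a setting chosen after seeing the data, SIL1 ranked 3, plod3 6, NFE2L1 10, Adap2 11 and COL8A2 2360. Of the members, hyou1 copy 1 and dnajc3a came nearest, at 0.20 and 0.21, and calr3b was farthest, at 1.72. Among all other listed genes, hyou1 copy 1 ranked 17 and dnajc3a 18.

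The deposited list held few cell type markers. Of 19 hepatocyte symbols 4 were listed, with a summed level of 11031 to 11343 FPKM in heat and 8749 to 9267 FPKM in control. Of their 6 entries 5 rose and 1, rbp4, fell, from a mean of 5950 FPKM in control to 1998 FPKM in heat. The HP entries rose from means of 2298 and 656 FPKM in control to 6491 and 1898 FPKM in heat. The sum is mostly HP and rbp4, whose opposite changes partly offset each other in it. Of 19 pancreas symbols 2 were listed (ins and CELA2A), at a summed 2.75 to 4.37 FPKM in heat and 0 to 0.195 FPKM in control. No erythrocyte symbol was listed. Of 7 myeloid symbols 2 were listed, at a summed 8.84 to 11.4 FPKM in heat and 0.827 to 0.954 FPKM in control. Of 9 lymphocyte symbols 1 was listed, at 2.73 to 2.83 FPKM in heat and 0.711 to 1.41 FPKM in control. Of 8 stroma and endothelium symbols 1 was listed, at 8.82 to 9.40 FPKM in heat and 21.9 to 24.3 FPKM in control. The part of these cells in the rise of the ER chaperones was not tested.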

How the data were processed

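Per the labels' protocols, cDNA libraries were made from total RNA of liver for Illumina sequencing, and libraries were grouped by the treatment label. Per the submitters' processing notes, the tools included Bowtie2 2.2.8 and StringTie. Neither the genome build and annotation nor the test that gave the authors' p-values is stated in the sources used here, and coordinates are left out. The deposited table gives read counts and FPKM per library and the authors' log2 fold change, per the file headers. Each of its columns is 8 characters wide, so identifiers are truncated. Lines whose value columns did not all read as numbers, 822 of them, were left out. They were taken as wrapped annotation, which was not checked line by line. Of the 8 distinct member symbols, case ignored, 6 (not hspa5 or hsp90b1) were found in RefSeq's genes for assembly USDA_OmykA_1.1.

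Counts could not be machine-verified as counts in this layout, so limma-voom (limma 3.58.1, R 4.3.3) was fitted over all genes with at least 10 counts in 3 libraries, adjusted by Benjamini-Hochberg over these 4766. Library sizes were the relative totals that count over FPKM gives (over genes of 200 counts or more and 5 FPKM or more). Heat replicates 1 to 3 had totals 1.55, 1.17 and 1.14 times that of control replicate 1, and control replicates 2 and 3 had 0.999 and 1.02 times. The absolute depth is unknown. Changes relative to a member used that member's counts as library size. This was planned for hspa5 copy 1, and the other denominators were added after seeing the data. Members and lists were chosen with earlier results of these data known. Named genes were all members, the up to 4 most abundant list entries per role, the most abundant counterpart entry per symbol and the 5 nearest profiles. The other counterpart entries of HSPA4, HSPA4L and hsc71 were named after their values were seen. Shares were tested by an exact permutation test (Python 3.11.15, scipy 1.17.1). Alternatives were other scalings, filters, pseudocounts, a replicate block and leaving out each library.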

Additional observations from a re-analysis of the deposited data

How the results depend on the processing

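The members kept direction and call in all 182 of their fold changes under the alternatives (other scalings, filters and pseudocounts, a replicate block, and each library left out), and all 13 rose in each setting. Sizes depended on scaling. Median-of-ratios scaling moved the median log2 fold change of all tested genes by -0.89, TMM by -0.49 and the sum of listed counts by -0.73. Under median-of-ratios scaling 1733 genes rose and 1996 fell, against 2770 and 1996 as reported (2622 rose with TMM and 2207 with the sum). There calr3b rose 1.08-fold and hspa5 copy 1 11.8-fold. Differences between members do not depend on scaling. With a pseudocount of 1 FPKM, Calr rose 2.09-fold. Relative to the sum of all members in place of hspa5 copy 1, the change of hyou1 copy 2 was 0.35. That sum rose less than hspa5 copy 1 and also less than hyou1 copy 2. Relative to the sum, and with hspa5 copy 1 not counted, the numbers of members that changed less and more were 6 and 5. Calr was at -0.27 (limma-voom, adjusted p = 0.582). The change of calr3a relative to CALR copy 1 ranged from -0.0484 to 0.0179 with each library left out. The share of Calr differed by -0.00599 percentage points with all libraries, and by -0.0120 to 0.00567 with each library left out, positive only without control replicate 2. Whether the replicate numbers pair the libraries is not in the labels. Same-numbered libraries had correlations of their deviations of 0.03, 0.01 and -0.01, and differently numbered ones of -0.04 to 0.03. No pairing was seen, but 3 libraries a group cannot show that there is none. With a replicate block, 13 members rose, the number of rising genes was 2770, and Hsp90b1 changed by 2.69 relative to grp94. It ended no call.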
